A study of Zea mays with 6 samples.

Results

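The genes described here are ACCS (GRMZM2G029135) and AACO (AC148152_3_FGT005 on the array), which the study names as transcripts coding for 1-aminocyclopropane-1-carboxylate synthase and 1-aminocyclopropane-1-carboxylate oxidase, the enzymes of ethylene synthesis in maize roots. They were chosen by their identifiers: all array rows of these genes were taken, which gave 2 transcripts and 6 probes of the 59756 transcripts, 39219 genes and 139000 transcript probes of the array. Ethylene is a gaseous hormone made from methionine. Methionine is activated to S-adenosylmethionine by SAM synthases, ACC synthases turn this compound into the cyclic amino acid ACC, and ACC oxidases, which need ferrous iron as a cofactor, release ethylene from it. In roots ethylene is known for restraining elongation and promoting root hairs, and in dicots such as Arabidopsis it takes part in the induction of iron uptake genes. Grasses acquire iron mainly through phytosiderophores, chelators that are built from the same S-adenosylmethionine.

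Root RNA of maize (Zea mays, cv. PR33T56, labelled a hybrid) was hybridised to 6 single-colour arrays, 3 labelled Fe-deficient and 3 labelled Fe-sufficient. All plants were first raised without Fe. From an age of 12 d, those labelled Fe-deficient stayed in the solution without Fe for 7 d more, whereas those labelled Fe-sufficient received 100 µM Fe-EDTA, so the latter were resupplied plants and not plants grown with Fe throughout. Roots were collected at 19 d and those of 6 plants were pooled per array, and replicates were taken from separate cultivations according to the methods. Whole roots were used, so a smaller share of a cell type and less RNA per cell cannot be told apart. The comparison asks whether the transcripts of these genes respond to Fe supply.

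Some features of the arrays touch every value below. All 6 arrays lay on 1 slide, with the groups at separate positions, so position and group cannot be told apart. The array Fe-sufficient 1 stood apart from its group. Over all transcript probes its log2 values correlated with Fe-deficient 1 and 3 at r = 0.978 and 0.976, and with Fe-deficient 2 at 0.958. Against these stood 0.964 and 0.957 with Fe-sufficient 2 and 3. Fe-deficient 2 had low correlations with most arrays, from 0.940 to 0.971. Levels of iron genes did not separate the groups as their labels would. TOM1, the exporter of phytosiderophores, and ferritin, which stores iron, are given array by array beside AACO. All 5 root marker genes were above background on all arrays, with array medians of 11.14 to 12.61 in the Fe-deficient and 11.34 to 12.68 in the Fe-sufficient group. YS1 and TOM1 among them are also iron genes. Of 5 leaf photosynthesis genes 3 were also above background on all arrays (array medians of 8.50 to 9.50 and 8.43 to 9.30). Ppdk1 among them was bright, at 13.96 to 14.95, and higher on each Fe-deficient array than on any Fe-sufficient one. The pepc gene ranged from 9.99 to 11.66. A gene of the small Rubisco subunit was above background on none, and another on 2 arrays, 1 in each group. These lists give levels and are no test of the tissue. TOM1 was low and ferritin high on Fe-sufficient 1 alone, with Fe-sufficient 2 and 3 near the arrays labelled Fe-deficient in both genes. YS1 and NRAMP1 were lower on each array labelled Fe-deficient than on any labelled Fe-sufficient. The groups are named here as labelled. Whether every array carries the right label was not tested, so each signed difference holds for the labels only. Values are log2 intensities, summarised over the probes of a transcript by median polish, and differences are Fe-deficient minus Fe-sufficient.

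Neither gene differed between the groups beyond the spread between arrays. With calls made at limma adjusted p-values up to 0.05 and changes of 1.5-fold or more, 0.0853% of all transcripts were called. Of the 2 members 0 were called, and at an unadjusted limma p of at most 0.05, which 10.3% of all transcripts had, the number was also 0. Groups that did not overlap were found for 17.4% of all transcripts and for 0 of the 2 members. The median log2 difference of all transcripts was 0.015.

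AACO is listed by the study as coding for ACC oxidase, the last enzyme of the pathway. Its transcript had log2 levels of 14.23, 13.96 and 13.99 on the arrays Fe-deficient 1 to 3. On Fe-sufficient 1 to 3 the levels were 12.75, 14.81 and 14.57. The Fe-deficient arrays lay close together, and the Fe-sufficient ones lay on both sides of them, with 1 array below all Fe-deficient values and the other 2 above. The group means were therefore nearly equal, 14.06 ± 0.15 in the Fe-deficient and 14.05 ± 1.13 in the Fe-sufficient group (SD, n = 3 in each). The log2 difference was 0.01 with a standard error of 0.51 (limma adjusted p = 0.994). As a fold change it was 1.01, with a 95% interval from 0.436 to 2.34. An exact two-sided permutation test over the 20 regroupings of the arrays gave p = 1, where the smallest p that 3 against 3 arrays allow is 0.10. With the standard error of this gene, an observed log2 difference of 4.63 would have been needed for a call. The absence of a call therefore says little about smaller changes of AACO.

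AACO was spread widely inside the Fe-sufficient group. Its SD there was 7.48 times that in the Fe-deficient group. An SD at least as large within the Fe-sufficient group was found for 1.37% of all transcripts. Within the Fe-deficient group, in contrast, 63.1% of all transcripts had an SD at least as large as that of AACO. On Fe-sufficient 1 the level of AACO was 1.94 log2 units below the mean of Fe-sufficient 2 and 3, which is 3.84-fold lower. A gap of that size in the same direction was seen for 0.927% of all transcripts, and 16.2% of all transcripts had their lowest level of the 6 arrays on Fe-sufficient 1. These shares describe the array and are not a test of AACO.

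The 3 AACO probes, which the files place at positions 415, 839 and 1363 of the transcript, showed this pattern separately. The probe at 415 had intensities of 19255, 15904 and 16265 on the Fe-deficient arrays. On the Fe-sufficient arrays it gave 6893, 28799 and 24376. The probe at 839 gave 36628, 31439 and 34239 against 15413, 46945 and 41538. The probe at 1363 gave 5059, 3845 and 4255 against 1386, 7919 and 7908. Each of the 3 probes was therefore lowest on Fe-sufficient 1 and highest on Fe-sufficient 2, with all Fe-deficient values in between. The deficit of Fe-sufficient 1 against the other Fe-sufficient arrays was 3.84-fold, 2.87-fold and 5.71-fold in the order of the positions. Over the 6 arrays the probes correlated with each other at r = 0.98 to 0.99, as a description of arrays that the probes share. The log2 differences between the groups were 0.01, 0.13 and -0.02 (limma adjusted p = 0.995, 0.926 and 0.993 over all transcript probes). Of all transcript probes 0.0518% were called, and of the 6 probes of both genes 0 were. The highest normalized intensity on any array was 59380, above all AACO values. Whether a probe was saturated at the scanner cannot be seen in normalized values. The lowest AACO value was 5.62-fold above the background limit of its array. The transcript value of AACO was that of the probe at 415.

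**Figure D1:**
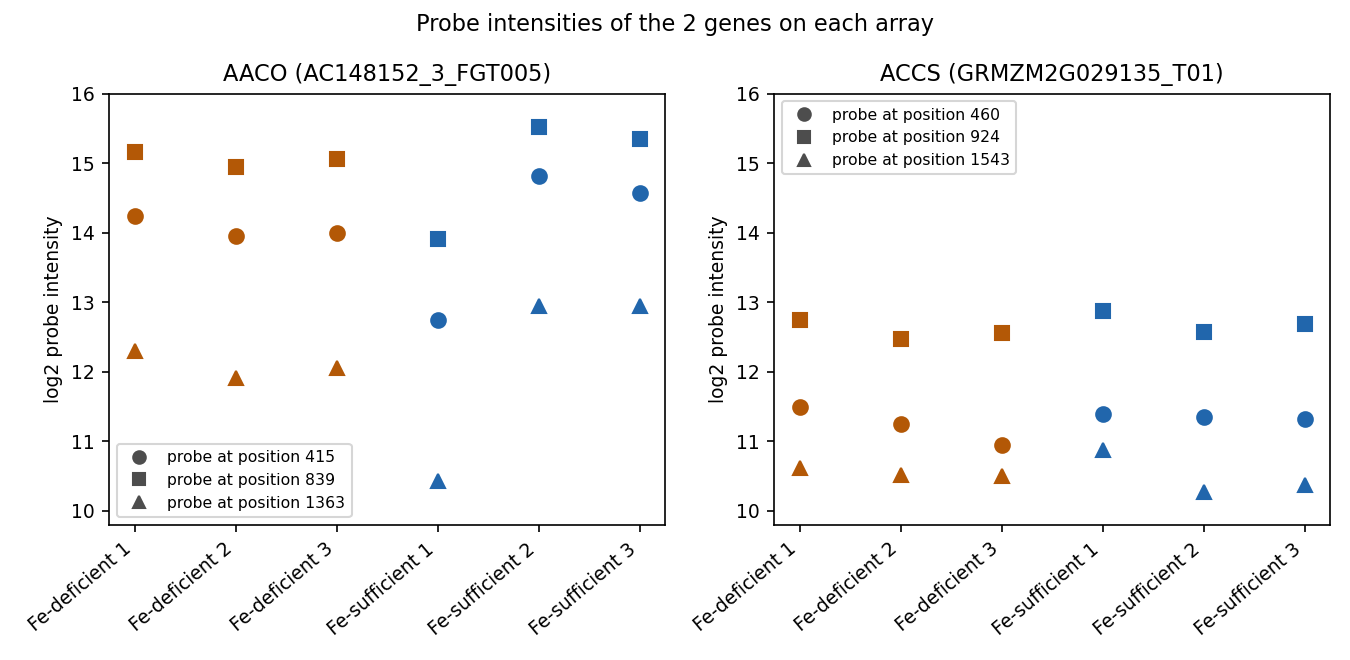
Log2 intensity (vertical axis) of the 3 AACO probes and the 3 ACCS probes on each of the 6 arrays (horizontal axis; brown, labelled Fe-deficient; blue, labelled Fe-sufficient). All AACO probes are lowest on Fe-sufficient 1 and highest on Fe-sufficient 2, whereas no ACCS probe spans more than 0.61 log2 units.

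Without Fe-sufficient 1 the direction of AACO turned. The log2 difference was then -0.63 (95% interval -1.04 to -0.23), that is 1.55-fold lower under the Fe-deficient label, and AACO was still not called (limma adjusted p = 0.142). In that setting 1096 transcripts were called instead of 51. When any other array was left out, the difference of AACO lay between -0.07, without Fe-deficient 1, and 0.40, without Fe-sufficient 2. A fit with array weights, which gives less influence to arrays that depart from the model, gave -0.29 (limma adjusted p = 0.685).

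ACCS is annotated by the study as the enzyme that makes ACC. The study's own annotation of the gene is not uniform: its closest Arabidopsis match is an aminotransferase of the class to which ACC synthases belong, and the resemblance to an ACC synthase is weak. That Arabidopsis gene, VAS1, is known for using methionine as an amino donor, which links auxin and ethylene metabolism. Its name here follows the study. For AACO the matches given there are an iron-dependent oxygenase family and a rice gene listed as an ACC oxidase homolog. The study chose both genes on these arrays, so its listing is no independent evidence of their direction.

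The ACCS transcript (GRMZM2G029135_T01) had log2 levels of 11.44, 11.25 and 11.26 on Fe-deficient 1 to 3. On Fe-sufficient 1 to 3 they were 11.58, 11.28 and 11.32. The groups overlapped, and all 6 values lay within 0.32 log2 units. The means were 11.32 ± 0.10 and 11.39 ± 0.16 (SD, n = 3 in each). The log2 difference was -0.08 with a standard error of 0.15 (limma adjusted p = 0.868), and the exact two-sided permutation test gave p = 0.5. The fold change of 0.949 had a 95% interval from 0.745 to 1.21, which does not reach 1.5-fold in either direction. A log2 difference of 1.34 would have been needed for a call. An SD at least as large was found for 65.6% of all transcripts in the Fe-sufficient and 78.3% in the Fe-deficient group, so the SD of ACCS was below the median of all transcripts in both.

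On Fe-sufficient 1, where AACO was lowest, ACCS had its highest level, 1.21-fold above the mean of Fe-sufficient 2 and 3. Of all transcripts 19.6% were highest on that array, and 26.2% stood at least as far above the other Fe-sufficient arrays. Without Fe-sufficient 1 the log2 difference of ACCS was 0.02, and leaving out each array in turn gave -0.14 to 0.02. The ACCS probes, at positions 460, 924 and 1543, did not follow each other as those of AACO did, with r between 0.22 and 0.67 over the 6 arrays. The probe at 460 had log2 values of 11.49, 11.25 and 10.95 on the Fe-deficient arrays and 11.39, 11.35 and 11.32 on the Fe-sufficient ones. The probe at 1543 had 10.61, 10.52 and 10.50 against 10.88, 10.27 and 10.37. The first was thus most variable among the Fe-deficient and the second among the Fe-sufficient arrays. The log2 differences of the 3 probes were -0.12, -0.13 and 0.03 (limma adjusted p = 0.835, 0.803 and 0.965). All were above background on all arrays, the lowest value being 3.45-fold above the limit of its array.

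**Figure D2:**
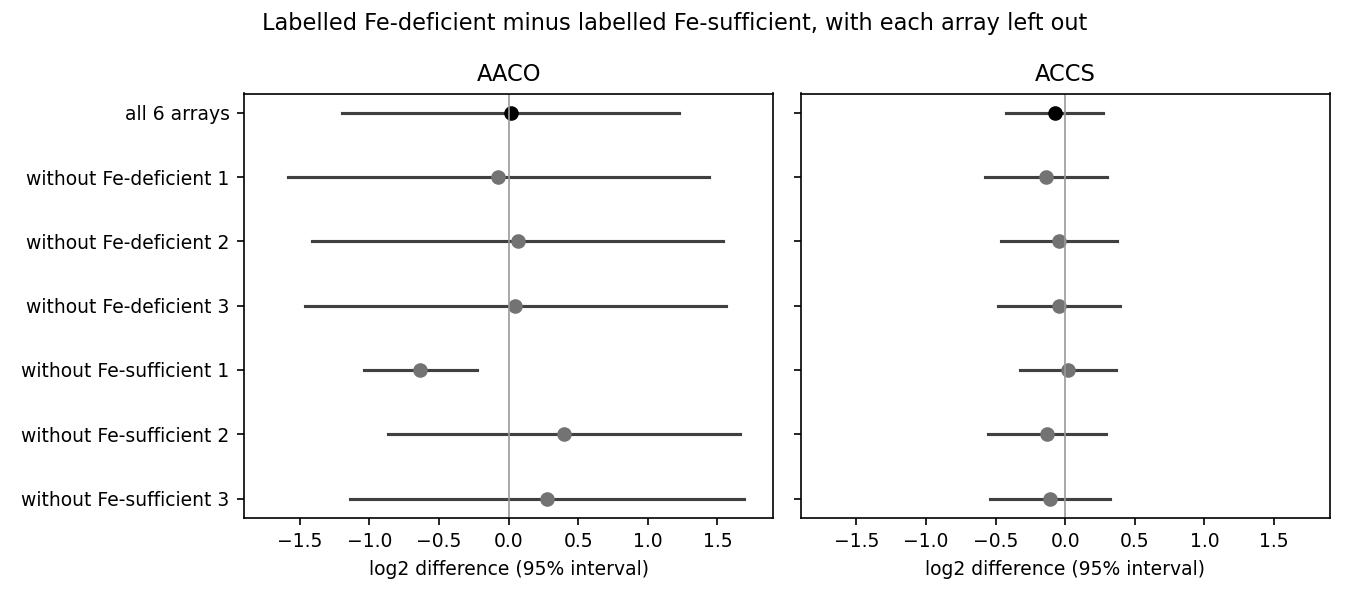
Log2 difference (labelled Fe-deficient minus labelled Fe-sufficient, horizontal axis) of AACO and ACCS with all 6 arrays and with each array left out; points are estimates and lines 95% intervals from limma. Without Fe-sufficient 1 the AACO difference is -0.63 and its interval narrows to -1.04 to -0.23, while the ACCS intervals include 0 in every row. Fe-sufficient 1 holds the lowest AACO level, so the narrower interval is no test of AACO.

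The iron genes that the study measured by PCR were set beside AACO array by array. TOM1 had log2 levels of 12.61, 11.14 and 12.59 on the Fe-deficient arrays. On the Fe-sufficient arrays it had 8.49, 13.51 and 12.52. Like AACO it was lowest on Fe-sufficient 1 and highest on Fe-sufficient 2. Ferritin had 13.23, 13.26 and 13.27 against 13.96, 13.23 and 13.22, and so was highest on Fe-sufficient 1 and nearly level on the other 5 arrays. YS1, which takes up iron bound to phytosiderophores, had 11.08, 10.90 and 10.86 against 11.34, 11.81 and 11.11. NRAMP1, a transporter of divalent metals, had 12.75, 12.07 and 12.81 against 12.94, 13.18 and 13.00. YS1 and NRAMP1 were lower on each array labelled Fe-deficient than on any labelled Fe-sufficient, and were not called (limma adjusted p = 0.491 and 0.494). The groups overlapped for the peptide transporter family gene OPT7, with 10.36, 10.31 and 10.15 against 10.67, 10.43 and 9.79, which unlike TOM1 was highest on Fe-sufficient 1. They also overlapped for the phosphate transporter gene PHT1-7, with 10.23, 10.03 and 9.94 against 9.70, 10.56 and 9.76, whose lowest array was Fe-sufficient 1. Whether the order of the arrays in these iron genes has a part in the spread of AACO was not tested.

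**Figure D3:**
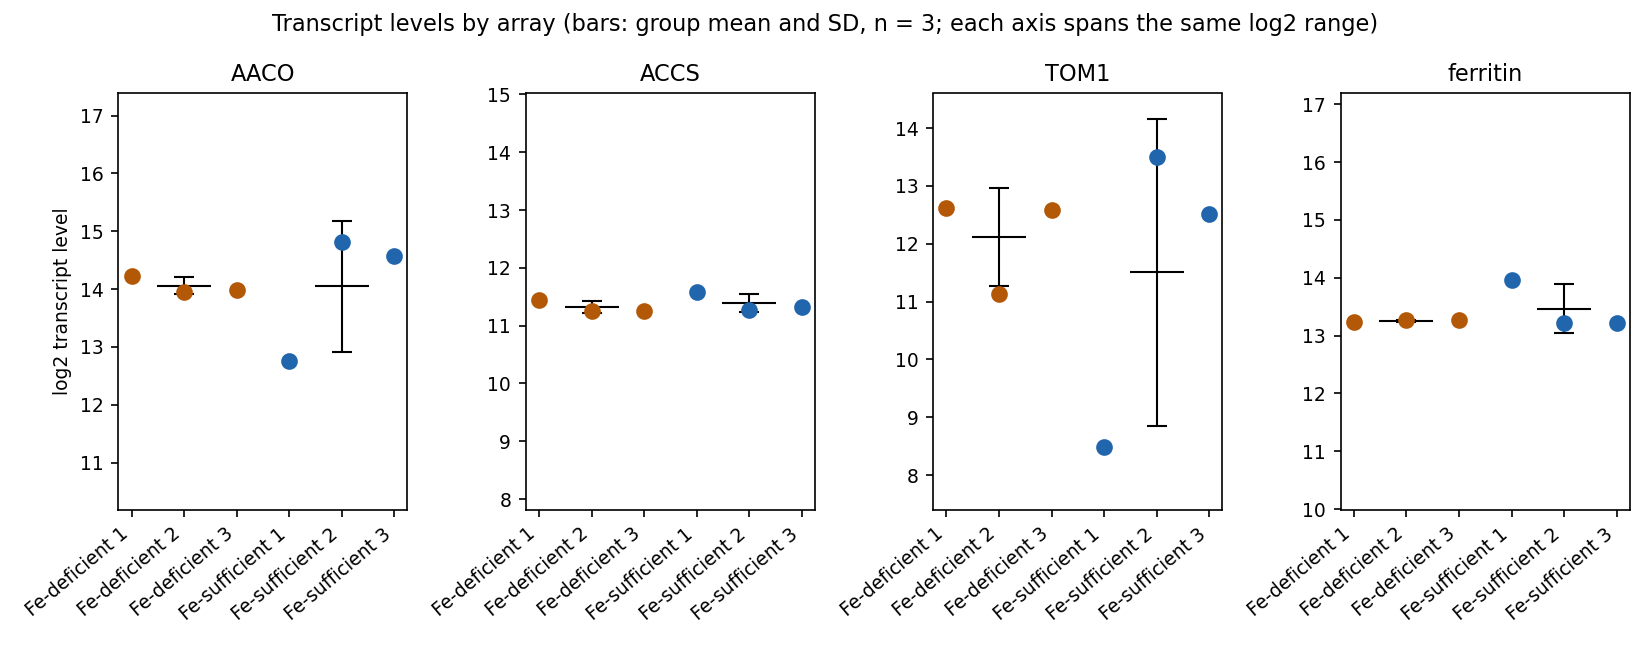
Log2 transcript levels of AACO, ACCS, TOM1 and ferritin (vertical axes, all of the same span) on the 6 arrays, with the mean and SD of each group (n = 3) as bars. On Fe-sufficient 1 AACO (12.75) and TOM1 (8.49) have their lowest and ferritin (13.96) its highest level.

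Other ethylene genes were found by symbol in a RefSeq gene table, where 17413 of the 39219 array genes matched 1 row. The list is not the whole pathway, since its signalling genes past the receptors were all ARGOS genes. It held 48 genes in all. In their brightest transcript 0 were called higher and 0 lower, the lowest limma adjusted p being 0.391, and 8 (16.7%) had an unadjusted p of at most 0.05, beside 10.3% of all transcripts. Of their 72 transcripts 0 were called. The log2 difference was above 0 for 31 genes and below 0 for 16 after rounding, with a median of 0.20 beside 0.015 for all transcripts. Without Fe-deficient 2 that median was 0.10, and with the brightest probe of each transcript 0.11. The list medians are over the brightest transcript of each gene, whereas 0.015 is over all transcripts, dim ones included. The groups did not overlap for 8 genes (16.7%), close to the 17.4% of all transcripts. All levels named below belong to single genes and are not compared between genes.

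Upstream of ACC, the SAM synthase gene sam2 (GRMZM2G154397) had 15.17, 15.11 and 15.23 on the Fe-deficient arrays and 15.19, 15.20 and 15.06 on the Fe-sufficient ones, a fold change of 1.01 (limma adjusted p = 0.966). The ACC synthase gene ACS6 (GRMZM2G054361) had 10.73, 11.62 and 9.66 against 9.84, 9.53 and 8.38. Its groups overlapped, and the fold change of 2.68 did not pass the test (limma adjusted p = 0.471, unadjusted p = 0.0385). The other annotated ACC synthase, acs7 (GRMZM5G894619), had 10.33, 10.51 and 10.03 against 9.42, 10.42 and 10.09 and a fold change of 1.24 (limma adjusted p = 0.683). Like AACO, acs7 was lowest on Fe-sufficient 1. For ACS6 the lowest array was Fe-sufficient 3. The gene GRMZM2G107639, which shares its closest Arabidopsis match with ACCS and was looked up after the values had been seen, had 9.57, 9.09 and 9.86 against 9.78, 9.38 and 9.70 (fold change 0.924, limma adjusted p = 0.871).

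The annotated ACC oxidases did not show the pattern of AACO. ACO20 (GRMZM2G126732) had 8.38, 8.86 and 8.12 against 8.42, 8.27 and 8.12, a 1.13-fold change (limma adjusted p = 0.766). ACO31 (GRMZM2G072529) had 7.96, 7.87 and 7.79 against 7.96, 8.14 and 7.80, a 0.939-fold change (limma adjusted p = 0.834). On Fe-sufficient 1 neither gene had its lowest level of the 6 arrays. Both were dim, at 8.12 to 8.86 and 7.79 to 8.14, beside log2 background limits of 7.84 to 8.49 on the arrays. They could therefore hardly show a fall as deep as that of AACO.

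Ethylene is perceived by receptors in the endoplasmic reticulum that repress the pathway when no hormone is bound. The receptor gene ERS14 (GRMZM2G102601) ranged from 12.70 to 12.80 on the Fe-deficient and from 12.56 to 12.95 on the Fe-sufficient arrays (fold change 0.977, limma adjusted p = 0.948). ZmETR2 (GRMZM2G420801) ranged from 13.31 to 13.72 and from 13.03 to 13.52 (fold change 1.16, limma adjusted p = 0.672). ARGOS proteins are known in maize and Arabidopsis to lower ethylene sensitivity, and 6 of their genes were measured. ARGOS9 had 11.99, 12.51 and 10.62 against 10.73, 10.47 and 9.55 (fold change 2.74, limma adjusted p = 0.463). ARGOS6 had 10.86, 13.20 and 10.33 against 10.82, 10.18 and 10.22 (fold change 2.08, limma adjusted p = 0.595). Both were highest on Fe-deficient 2, as were ACS6 and ARGOS8 (fold change 3.24, limma adjusted p = 0.502, above background on 5 arrays). Without Fe-deficient 2 the fold change was 1.14 for ARGOS6, 1.94 for ARGOS8, 2.07 for ARGOS9 and 1.93 for ACS6. For ARGOS8 it was 5.30 without Fe-deficient 3 and 2.16 without Fe-sufficient 3. ARGOS7 and ARGOS5 had fold changes of 0.962 and 0.968, and ARGOS4 was above background on no array labelled Fe-sufficient, with levels of 7.77 to 8.08 on the Fe-deficient and 7.54 to 8.02 on the Fe-sufficient arrays.

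The last group comprised 35 transcription factor genes with ERF or EREB symbols. These symbols cover the whole AP2/EREBP family, whose members are not all regulated by ethylene. Of these genes 0 were called and 8 (22.9%) had groups that did not overlap, beside 17.4% of all transcripts. The median log2 difference of their brightest transcripts was 0.26, beside 0.015 over all transcripts, dim ones included. The lowest p belonged to EREB208 (GRMZM2G160971), with 11.59, 11.64 and 11.68 against 11.04, 10.52 and 11.10, a fold change of 1.68 (limma adjusted p = 0.391). EREB65 (GRMZM2G124011) had 11.34, 12.83 and 9.89 against 8.96, 9.04 and 8.96, a fold change of 5.17 (limma adjusted p = 0.425). Its Fe-sufficient arrays were nearly equal, and its Fe-deficient arrays were all higher but far apart, with the highest on Fe-deficient 2. Without that array the fold change of EREB65 was 3.10, and without Fe-deficient 3 it was 8.57. EREB14 (GRMZM2G018398) had 8.35, 8.23 and 8.48 against 7.74, 6.88 and 7.86, a fold change of 1.82 (limma adjusted p = 0.443), and was above background on 5 arrays.

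**Figure D4:**
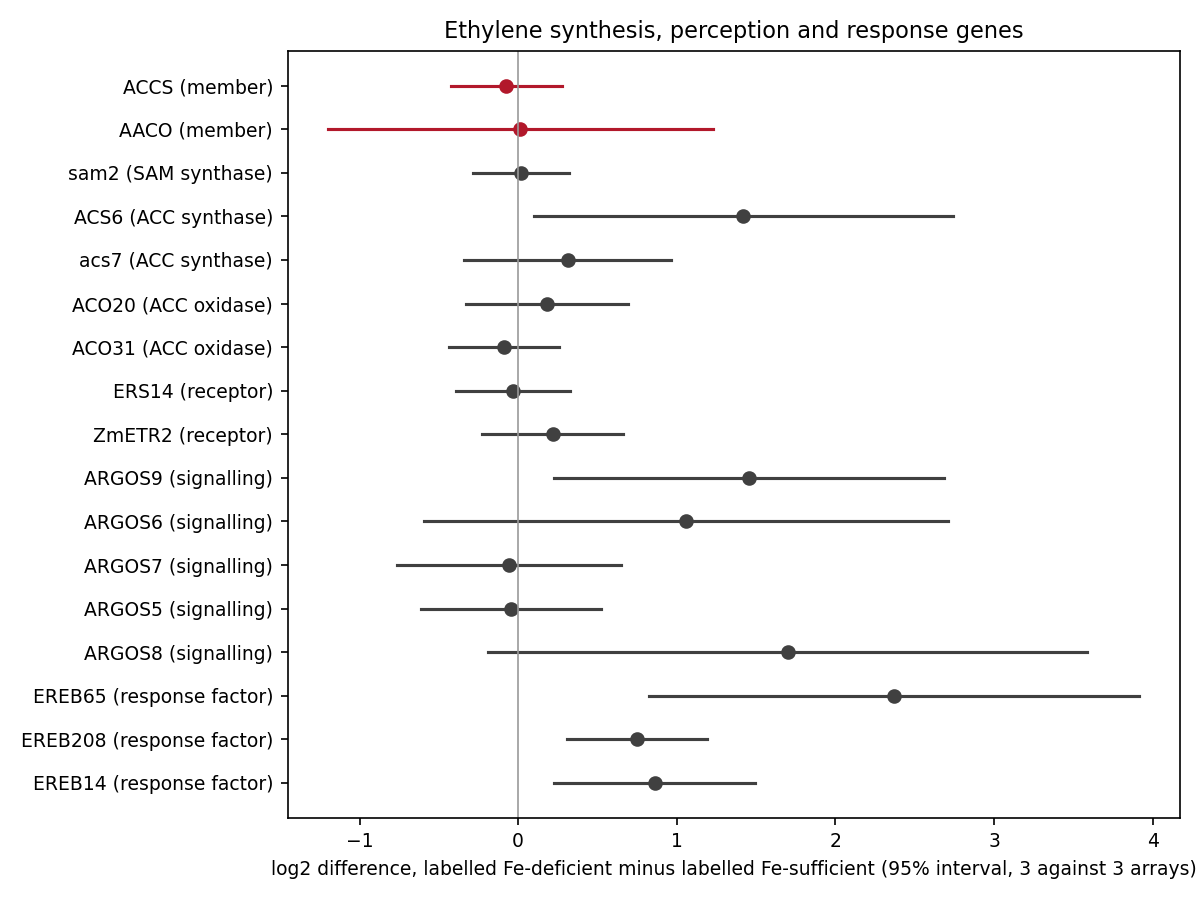
Log2 difference (labelled Fe-deficient minus labelled Fe-sufficient, horizontal axis; lines, 95% intervals from limma) of ACCS, AACO and the named ethylene genes that were above background in both groups. AACO has a difference of 0.01 and an interval from -1.20 to 1.23, and 0 of the genes shown were called after adjustment over all transcripts.

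Among the 43209 transcripts above background on all 6 arrays, those of other genes whose levels followed AACO most closely were GRMZM2G418916_T01 (Pearson r = 0.998), GRMZM2G132169_T01 (r = 0.997) and GRMZM2G099989_T01 (r = 0.995). With 6 points and 43209 candidates such values describe likeness only. The transcript of GRMZM2G132169 had 13.84, 13.37 and 13.45 on the Fe-deficient arrays and 11.66, 14.42 and 14.20 on the Fe-sufficient ones, a range larger than that of AACO (2.06 log2 units). GRMZM2G418916, also lowest on Fe-sufficient 1 and highest on Fe-sufficient 2, had a far narrower range, from 12.61 to 13.14. On the 5 arrays without Fe-sufficient 1 the 3 transcripts correlated with AACO at r = 0.992, 0.993 and 0.996. For ACCS the closest was GRMZM2G106798_T01 (sbp3, r = 0.993), whose symbol names a squamosa-promoter binding protein, with 8.63, 8.29 and 8.30 against 8.82, 8.38 and 8.42. It was followed by GRMZM2G062591_T02 and GRMZM2G008751_T01 (r = 0.991 for both). All 3 were highest on Fe-sufficient 1, as was ACCS.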

How the data were processed

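The authors scanned single-colour NimbleGen arrays, designed on B73 transcripts of release 5b, extracted signals with NimbleScan and normalized them by quantiles, and the submitters' processing notes name RMA. The deposited files hold 1 linear intensity per probe and array, already normalized, so no further normalization was made. The handling of background is not stated in the sources used here, and quantile scaling forces equal distributions on arrays. The deposited value table holds the same intensities, with a largest difference of 0.

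Intensities were taken to log2 and probes summarised by median polish. The groups were compared with lmFit and eBayes of limma 3.58.1 (R 4.3.3), with no covariate, and p-values adjusted by Benjamini-Hochberg over 59756 transcripts or 139000 probes. A transcript was above background if 1 or more of its probes were brighter than the 95th percentile of the 1663 random probes. The procedure was tested on simulated data with independent noise for each transcript. The simulated data held no outlying array, so the test does not cover an array that stands apart, as Fe-sufficient 1 did. Precision is limited by the 3 arrays in each group. Of the array's genes 17413 matched 1 row of the RefSeq table (assembly NAM-5.0, another build, used for names only), GRMZM2G029135 among them without an informative symbol. The members and lists were chosen with earlier results of these data known. Named were both genes with every probe, all listed ethylene genes outside the transcription factors, the 3 transcription factors of lowest p and the 3 most similar transcripts. SAMS1, EREB192 and RTE2 were left out because the symbol was ambiguous or had no single array gene. Alternatives were other background corrections, normalizations and probe summaries, array weights, dropping dim transcripts, the replicate block and each array left out. Figures were made with matplotlib 3.10.9.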

Additional observations from a re-analysis of the deposited data

How the results depend on the processing

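Under the main setting and 15 alternatives, limma called neither gene and none of the named ethylene genes. It also called none of the listed genes tested (43 with dim transcripts left out, 48 otherwise). The adjusted p ranged from 0.142 to 0.995 for AACO and from 0.784 to 0.958 for ACCS. Background correction, normalization, probe summary and the filter on dim transcripts kept the direction of both. Array weights turned both, to -0.29 for AACO and 0.051 for ACCS, and leaving out each array gave -0.63 to 0.40 and -0.135 to 0.018, the first value of AACO and the last of ACCS without Fe-sufficient 1. Array weights also turned the AACO probes at 415 (-0.30) and 839 (-0.12), ERS14 (0.066), ARGOS7 (0.22) and GRMZM2G107639 (0.023). The mean of probes turned ARGOS7 (0.005), and the brightest probe sam2 (-0.059) and ACO20 (-0.17). With each array left out, the ranges that include both signs were -0.63 to 0.40, -0.38 to 0.43 and -0.86 to 0.40 for the AACO probes at 415, 839 and 1363. They were -0.25 to 0.02 and -0.085 to 0.218 for the ACCS probes at 460 and 1543. They were -0.026 to 0.046 for sam2, -0.022 to 0.35 for ACO20, -0.144 to 0.055 for ERS14, -0.22 to 0.26 for ARGOS7, -0.21 to 0.19 for ARGOS5 and -0.29 to 0.10 for GRMZM2G107639. With the brightest probe the fold change of ARGOS6 was 1.35, that of ARGOS8 5.15 and that of EREB65 2.87. The cause was not tested.

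The number of transcripts called on the array, 51, was 28 with an RMA-type background correction, 32 with the brightest probe, 165 with array weights and 2 to 1096 with each array left out, the last without Fe-sufficient 1. With the replicate number as a block it was 0, while AACO kept its log2 difference of 0.01 and ACCS -0.08, and the block changed no call of the members. With the block the unadjusted limma p was 0.00261 for ACS6 and 0.00139 for ARGOS9, against 0.0385 and 0.0268 without it. Neither was called. The unadjusted limma p also fell for ARGOS8 (0.0714 to 0.00945), EREB65 (0.00849 to 0.00546) and EREB14 (0.0147 to 0.00898). For EREB208 it rose from 0.00502 to 0.0101. The deviations of arrays with the same number correlated at r = -0.12, -0.00824 and 0.0702, and those of Fe-deficient 1 and Fe-sufficient 2 at 0.21. These values cannot show whether arrays with the same number came from the same cultivation. The value table gave no alternative, since it is identical, and a search for related proteins was not run, as no protein table was used here. For both genes the log2 difference was smaller than its standard error in the fit of all 6 arrays.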
